A study of Mus musculus with 24 samples.

Results

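Transcription factors that give the intestinal epithelium its identity, or that are active in the differentiated cells of the villus, are described here in mouse intestinal organoids, cultures of epithelium grown from crypts. The 10 genes were listed by symbol and are Hnf4a, Hnf4g, Cdx1, Cdx2, Gata4, Gata6, Klf4, Klf5, Prdm1 and Creb3l3, out of 54146 genes with read counts. Hnf4a and Hnf4g encode nuclear receptors that act at enterocyte genes, and Cdx1 and Cdx2 encode homeodomain proteins of the caudal family that set intestinal against gastric fate. Gata4 marks the proximal small intestine and Gata6 is found along its length, while Klf4 is highest in differentiated cells and Klf5 in the crypt. Prdm1 encodes a repressor of the neonatal epithelium, and Creb3l3 a membrane-bound factor of lipid metabolism.

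The study asked what the Mediator kinases CDK8 and CDK19 do in this epithelium, by gene deletion in one experiment and by a CDK8/19 inhibitor, Senexin B, in the other. RNA was sequenced from 24 libraries in 8 groups of 3, with 12 libraries per experiment. All 4 genotype groups received 600 nM 4-hydroxytamoxifen for 7 days. Groups labelled WT and Cdk19KO carry no Cdk8 deletion by their labels, and those labelled Cdk8KO and DoubleKO lose Cdk8 exon 2 through Cre recombinase fused to a modified oestrogen receptor, driven by the Villin promoter. In the groups labelled Cdk19KO and DoubleKO, Cdk19 exon 1 was cut by a guide RNA in the vector lentiCRISPRv2, followed by puromycin selection and expansion of single organoids, so that each such line is a clone. The inhibitor groups received DMSO, the solvent, or Senexin B at 10 µM, over 16 h or over 24 h, and their labels repeat the extraction text with 4-hydroxytamoxifen, so whether they were exposed to it is unclear.

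Genotype libraries held 14636861 to 15473180 counted reads and were made from oligo(dT)-selected RNA without strand information. Inhibitor libraries, labelled as rRNA-depleted total RNA, held 27075937 to 28405118 counted reads, and the experiments were therefore normalised and fitted apart. These are reads of 1 strand column, which without strand information takes up about as many reads as the column for the other strand; counted over both strands, the libraries held 27761454 to 29299919 and 28264517 to 28826860, respectively. The genotype samples carry the cell type label 4T1, a mouse mammary tumour line, beside a source of intestinal organoids. In these 12 libraries all 26 brush border genes listed passed the filter on low counts, whereas Krt14, Wap, Elf5 and Gata3, mammary genes, had at most 3 counts in every library and Csn2 had 0. Areg, also on that list of 7 and its only gene to pass the filter, was the most abundant, with 609, 623 and 695 normalised counts in WT, 1465, 1036 and 1549.9 in Cdk8KO, 578, 295 and 317 in Cdk19KO and 922, 1907 and 1491 in DoubleKO libraries. Genes of mesenchyme, of endothelium and blood, of stomach and of colon were low: the most abundant of each list were Vim, Pecam1, Pgc and Aqp8, with mean normalised counts of 266, 23.8, 53.5 and 68.8. These means pool groups that differ: Aqp8 had 14.1, 0 and 0 in the libraries labelled Cdk19KO and 155, 62.0 and 84.5 in those labelled DoubleKO, and Gif, of the stomach list, had 116, 179.9 and 52.3 and 1.02, 1.97 and 4.86, respectively. Lum and Col3a1, from the mesenchyme list, had 0 counts in the genotype libraries, as did Sox2 (stomach) and Hoxb13 (colon).

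Counts of the targeted genes do not separate all libraries by their labels. For the Cdk19-targeted organoids the paper reports a deletion by sequencing, absence of CDK19 protein by Western blot and loss of Cdk19 mRNA by qPCR. These measures are not matched to single libraries here, and counts summed over exons cannot show a small deletion. Cdk19 had 711, 749 and 726 normalised counts in the libraries labelled WT and 729, 420.1 and 422 in those labelled Cdk19KO, the first of which lies at the WT level. In those labelled DoubleKO it had 403, 355 and 773, and replicate 3 again lies at the WT level. Where leaving out these libraries changes whether a member is called in a comparison of their groups, the values without them are given; results for lists of genes include them, and Cdk8KO against WT was not fitted without them. Cdk8 counts, which sum all exons, were 635, 646 and 534 in WT, 685, 857 and 634 in Cdk8KO and 707, 659 and 645 in DoubleKO libraries, not lower where exon 2 is deleted by the labels; counts summed over exons cannot show the loss of 1 exon. Esr1, whose sequence is part of the Cre fusion, was far higher in both groups than in WT (log2 fold change 6.27 and 6.43), so the presence of Cre and the deletion of Cdk8 cannot be told apart.

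All 10 genes passed the filter on low counts in both experiments. Levels are compared between genes as RPKM, reads per kilobase of exon scaled to library size, and within a gene as normalised counts. In the libraries labelled WT, Hnf4a was highest with a mean of 230.0 RPKM, followed by Cdx2 at 130.2. Cdx1 (125) and Klf5 (116) came next with overlapping ranges, then Gata4 (73.7) and Hnf4g (67.5), which overlapped too. Below these lay Creb3l3 (55.1), Gata6 (30.3), Klf4 (14.9) and Prdm1 (3.27), each apart from its neighbours over 3 libraries. In DMSO at 16 h the order began likewise, with Hnf4a at 255 and Cdx2 at 150.2 RPKM, and ended with Gata6 (16.3), Klf4 (9.44) and Prdm1 (1.19). Between these, Cdx1 (63.7) overlapped Klf5 (61.8), Gata4 (53.8) overlapped Creb3l3 (41.8), and Creb3l3 overlapped Hnf4g (31.5). Gata6 shares 93 bp, 1.43% of its exonic bases, with a gene on the other strand, and no exonic base of the other members lies in another gene. The RNA comes from whole organoids, so fewer cells of a type and less RNA per cell cannot be told apart.

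**Figure D1:**
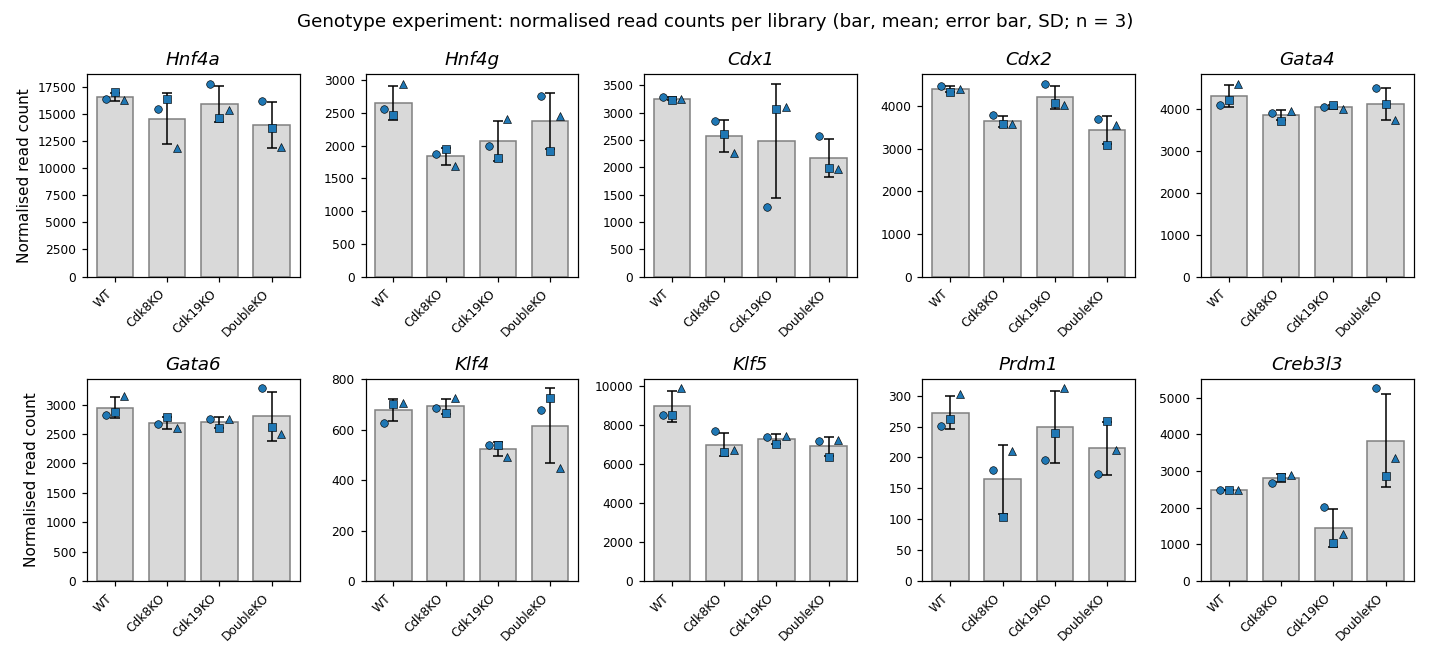
Normalised read counts (vertical axis) of the 10 genes in the 4 genotype groups (horizontal axis). Bars are means, error bars standard deviations and points the 3 libraries of a group; the Creb3l3 libraries labelled Cdk19KO all lie below those labelled DoubleKO.

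Loss of Cdk8 by itself asks whether this kinase is needed for the level of each factor. CDK19 is its close relative and is still encoded in these organoids. Among the HNF4 receptors, Hnf4a was the more abundant. Hnf4g was called and Hnf4a was not (log2 fold change −0.18, edgeR adjusted p = 0.489), and a difference between these genes was not tested. Hnf4g had 2558, 2459.9 and 2944 normalised counts in the libraries labelled WT, against 1873, 1948 and 1690.1 in those labelled Cdk8KO. In those labelled Cdk19KO and DoubleKO, it had 1987, 1809 and 2403, and 2760.3, 1914 and 2455, respectively. All 3 libraries labelled Cdk8KO lay below all 3 labelled WT. Groups did not overlap for 8 of the 10 members (all but Hnf4a and Klf4) and for 29.6% of all genes tested in this comparison. Hnf4g fell, as the 1 member called in this comparison, where 5.15% of the 15602 genes tested were called (log2 fold change −0.53, standard error 0.140, edgeR adjusted p = 0.0492). The call is a narrow one, and fits with 1 library of the pair left out called 1.23% to 4.39% of all genes: the adjusted p was 0.131, 0.0923 and 0.153 without WT replicate 1, 2 and 3, and 0.117, 0.0714 and 0.130 without the same replicates labelled Cdk8KO. With the replicate number as a block it was 0.0528, and over all alternatives it ranged from 0.00492 to 0.153.

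Klf5 had 8513, 8540.2 and 9904 normalised counts in the libraries labelled WT, against 7692, 6619.6 and 6722 in those labelled Cdk8KO. In those labelled Cdk19KO and DoubleKO, it had 7384, 7024 and 7475, and 7191, 6355 and 7231, respectively. Cdx2 had 4467, 4340.4 and 4395 normalised counts in the libraries labelled WT, against 3783, 3569.9 and 3570.4 in those labelled Cdk8KO. In those labelled Cdk19KO and DoubleKO, it had 4522, 4068 and 4034, and 3705, 3081 and 3550.4, respectively. For both genes the libraries labelled Cdk8KO lay below all 3 labelled WT. Neither was called by edgeR (Klf5: log2 fold change −0.36, standard error 0.0966, edgeR adjusted p = 0.0542; Cdx2: log2 fold change −0.27, standard error 0.0855, edgeR adjusted p = 0.0903). Over the alternatives the adjusted p ranged from 0.00395 to 0.165 for Klf5 and from 0.0203 to 0.246 for Cdx2, and the DESeq2 test called both. Prdm1 had 251, 263 and 303 normalised counts in the libraries labelled WT and 180.3, 103 and 210.3 in those labelled Cdk8KO, again with no overlap (log2 fold change −0.73, standard error 0.247, edgeR adjusted p = 0.115; range over alternatives 0.0199 to 0.278, lowest with no filter on low counts). The remaining members had log2 fold changes from −0.34 (Cdx1) to 0.17 (Creb3l3), and the median over the 10 was −0.23, beside 0.01 over all genes tested.

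The guide against Cdk19 tests the other kinase in organoids without a Cdk8 deletion by their labels. Of the 10 members, 0 were called by edgeR, where 0% of all genes tested were called; 4 members and 10.8% of all genes had an unadjusted p under 0.05, and DESeq2 called 0 members and 2.01% of all genes. Creb3l3 had 2478, 2485 and 2492 normalised counts in the libraries labelled WT, against 2680.4, 2848 and 2888 in those labelled Cdk8KO. In those labelled Cdk19KO and DoubleKO, it had 2023, 1040.4 and 1281, and 5253, 2862 and 3354, respectively. All libraries labelled Cdk19KO lay below those labelled WT, as groups did not overlap for 7 of the 10 members (all but Hnf4a, Cdx2 and Prdm1) and 20.0% of all genes, and replicate 1, which has WT-level Cdk19, was the nearest to them. The estimate was a log2 fold change −0.78, standard error 0.235, edgeR adjusted p = 0.213. Without that replicate edgeR called 521 of 15932 genes (3.27%; 0 to 5 genes without any other library of the pair), and Creb3l3 was among them, with a log2 fold change of −1.08 and an edgeR adjusted p of 0.0197, out of a range over alternatives from 0.00450 to 0.716.

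Klf4 had 628, 703 and 705 normalised counts in the libraries labelled WT, against 687, 666 and 725 in those labelled Cdk8KO. In those labelled Cdk19KO and DoubleKO, it had 540.0, 541 and 494, and 677, 725 and 449, respectively. The libraries labelled Cdk19KO lay below all 3 labelled WT. Klf4 was not called (log2 fold change −0.37, standard error 0.145, edgeR adjusted p = 0.354; range over alternatives 0.0446 to 0.755), nor without Cdk19KO replicate 1 (−0.38, standard error 0.169, adjusted p = 0.313). It passed when DoubleKO replicate 3, which is in neither group compared, was left out as well, at the same log2 fold change and a standard error of 0.0906 (adjusted p = 0.0446). Klf5 and Hnf4g had log2 fold changes of −0.30 and −0.36 in the same comparison, uncalled (edgeR adjusted p = 0.248 and 0.348). Cdx1 had 3288, 3236 and 3257 normalised counts in the libraries labelled WT and 1270.5, 3064 and 3109.5 in those labelled Cdk19KO, where replicate 1 stands far below the others. The remaining members lay between −0.13 (Prdm1) and −0.06 (Hnf4a), and the median of the 10 was −0.21, beside −0.02 for all genes.

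Organoids labelled DoubleKO carry both lesions by their labels, and read counts do not show whether either protein is lost. The comparison uses the same WT libraries as the single deletions. Here 2 members were called, where 17.3% of all genes tested were, so the members' share is near that of all genes. Cdx2 and Klf5, whose libraries are given above, each had all 3 libraries labelled DoubleKO below all 3 labelled WT; groups did not overlap for 5 of the 10 members (also Hnf4a, Cdx1 and Creb3l3) and 38.8% of all genes. Cdx2 fell (log2 fold change −0.35, standard error 0.0856, edgeR adjusted p = 0.0158), with adjusted p of 0.0618 and 0.0602 without WT replicate 1 or DoubleKO replicate 2, and a range over alternatives from 0.000865 to 0.0618. Klf5 fell too (log2 fold change −0.38, standard error 0.0966, edgeR adjusted p = 0.0207), with 0.0854 and 0.0771 without WT replicate 3 or DoubleKO replicate 2, out of 0.00157 to 0.0854. Side by side over the groups labelled Cdk8KO, Cdk19KO and DoubleKO, the log2 fold changes against WT were −0.27, −0.06 and −0.35 for Cdx2, and −0.36, −0.30 and −0.38 for Klf5.

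For Creb3l3 the 3 libraries labelled DoubleKO lay above all 3 labelled WT, and replicate 1 stood well above the others. The gene was not called by edgeR (log2 fold change 0.62, standard error 0.233, edgeR adjusted p = 0.0868). DESeq2 called it (DESeq2 adjusted p = 0.0370), and the range over alternatives was 0.00769 to 0.297. Its log2 fold change was 0.33 without DoubleKO replicate 1, and 0.71 with an adjusted p of 0.0858 without DoubleKO replicate 3. It was called when Cdk19KO replicate 1, in neither group compared, was left out too (0.71, adjusted p = 0.0319). Cdx1 had 2576, 1987 and 1964 normalised counts in the libraries labelled DoubleKO, all below WT, and was not called (log2 fold change −0.58, edgeR adjusted p = 0.136; range over alternatives 0.0138 to 0.279). Without DoubleKO replicate 3 it had −0.52, a standard error of 0.298 and an adjusted p of 0.265. With Cdk19KO replicate 1, far below its group for Cdx1, left out as well, the log2 fold change stayed at −0.52, the standard error was 0.123 and the adjusted p 0.0172. Hnf4g, with a log2 fold change of −0.16, was not called (edgeR adjusted p = 0.464). Hnf4a, with 16452, 17040.3 and 16292 normalised counts in the WT libraries against 16227, 13760.4 and 11965 in the DoubleKO libraries, had −0.25 (95% interval −0.55 to 0.06). Gata4 and Gata6 had intervals of −0.25 to 0.12, and −0.29 to 0.14. Over the 12 genotype libraries, Gata4 ran from 3704 to 4593 normalised counts and Gata6 from 2499 to 3276.

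Setting the DoubleKO group against each single deletion asks what the second lesion adds. Against Cdk8KO, 0 members were called by edgeR, where 0.0256% of all genes were; 1 member and 15.5% of all genes had an unadjusted p under 0.05, and DESeq2 called 0 members and 2.64% of all genes. The share of all genes depends on 1 library: edgeR called 4 genes, 839 (5.28%) without Cdk8KO replicate 3 and 3 to 7 without any other of the pair of groups, with 0 members called each time. Against Cdk19KO, 2 members were called, where 25.3% of all genes were. Esr1 was far higher in DoubleKO than in Cdk19KO libraries (log2 fold change 6.62), so Cre and the Cdk8 deletion cannot be told apart here either. The part of differences between clones was not tested. Creb3l3 was higher in all 3 libraries labelled DoubleKO than in any labelled Cdk19KO and rose (log2 fold change 1.40, standard error 0.237, edgeR adjusted p = 0.00149). That call was made in 6 of 6 fits that left out 1 library of the pair of groups, and without both libraries that have WT-level Cdk19 (1.79, adjusted p = 0.000499; range over alternatives 1.99e-08 to 0.0172). Cdx2, for which the same holds downwards, fell (log2 fold change −0.29, standard error 0.0856, edgeR adjusted p = 0.0274). It had adjusted p of 0.0577, 0.0512 and 0.107 without Cdk19KO replicate 1 or 2 or DoubleKO replicate 2, 0.0620 with no filter on low counts, 0.0703 with these 2 groups fitted alone and 0.0661 without both libraries that have WT-level Cdk19 (range over alternatives 0.00458 to 0.107). No other member had groups without overlap here, 2 of 10 in all, beside 38.9% of all genes. Cdx1 was called when Cdk19KO replicate 1 was left out (−0.52, adjusted p = 0.0120, against −0.19 and 0.618 with it; range over alternatives 0.0120 to 0.970). Klf4 was called without DoubleKO replicate 3 (0.41, adjusted p = 0.00878, against 0.23 and 0.259 with it; range over alternatives 0.00878 to 0.671).

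Whether the DoubleKO value departs from the sum of the single log2 changes was tested directly. By edgeR 0 members were called, where 0.0256% of all genes were, with 2 members and 14.5% of all genes at an unadjusted p under 0.05; DESeq2 called 2 members and 3.18% of all genes. In place of the 4 genes, edgeR called 392 without Cdk8KO replicate 3, 467 without Cdk19KO replicate 1, 71 and 42 without DoubleKO replicate 2 and 3, and 0 to 7 without any other library. The 2 members called by DESeq2 were Hnf4g, with a departure of 0.73 (edgeR adjusted p = 0.134, DESeq2 0.0265, range over alternatives 0.0150 to 0.348), and Creb3l3, with 1.23 (edgeR 0.134, DESeq2 0.0148, range 0.000940 to 0.320). For Creb3l3 the edgeR adjusted p was 0.0199 without Cdk19KO replicate 1, at a departure of 1.54, and 0.0137 at 1.63 without both libraries that have WT-level Cdk19.

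Genes held to be regulated by these factors, or typical of the regions and cells they mark, were counted in lists for DoubleKO against WT, where 17.3% of all genes were called, and 8.47% to 15.4% in the 6 fits that left out 1 library of the pair of groups. Most of the lists are short, and a share near that of all genes is not a result about the list. Libraries labelled DoubleKO also differed from WT in mitochondrial reads (5.39% to 5.86% against 6.11% to 6.58%). The same held for reads mapped to several places (19.5% to 20.1% against 22.5% to 22.9%) and reads not on a gene (39.8% to 41.1% against 38.9% to 39.5%). The part of these measures in the results was not tested. Some genes are on more than one list: Apoa4 on the lipoprotein, jejunal and villus tip lists, Fabp1 and Rbp2 on the lipoprotein and jejunal lists, Lct, Sis and Treh on the brush border and PRDM1 lists, with Lct also jejunal, and Cubn and Amn on the ileal and PRDM1 lists. Of 26 brush border and villus genes with HNF4 or CDX2 as regulators, 18 rose and the rest were not called, with a median log2 fold change of 0.81 beside −0.01 for all genes; without WT replicate 1, 11 were called, beside 8.47% of all genes. Anpep (1.49) and Mep1a (1.38) were among them, and the list summed to 173328, 180421 and 178370.0 normalised counts in the WT libraries, against 334558, 268445 and 273527 in those labelled DoubleKO. Of 18 lipoprotein and lipid genes, targets of HNF4 or Creb3l3, 8 rose, with a median of 0.56, and 5 without WT replicate 1; they include Apoa4 (1.59) and Apob (1.06). Among 6 ileal genes 3 rose (median 0.60), with Slc10a2 at 2.25 and Slc51b at 1.92. Of 6 villus tip genes 3 rose (median 0.17), including Cdkn1a at 1.43. The 8 jejunal genes of the GATA4 list gave 3 up and 2 down (median 0.75); the count up was 1 without WT replicate 1, WT replicate 2 or DoubleKO replicate 1, and the count down was 0 without WT replicate 1 or 2 or DoubleKO replicate 2 or 3 and 1 without WT replicate 3 or DoubleKO replicate 1. Of 7 genes of the suckling or adult enterocyte, the PRDM1 list, 2 rose (median 0.46), with 0 called upward without WT replicate 1, 2 or 3 or DoubleKO replicate 1, and 1 without DoubleKO replicate 3.

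Cell type markers were counted in the same libraries, beside 17.3% of all genes called in DoubleKO and 5.15% in Cdk8KO against WT (8.47% to 15.4% and 1.23% to 4.39% with 1 library of the pair of groups left out). All 7 Paneth genes were called upward against WT in the libraries labelled DoubleKO (median 1.55), and 7 also in those labelled Cdk8KO, where 4 were called without WT replicate 1, 2 or 3, beside 1.23%, 1.61% and 2.09% of all genes. Summed Paneth levels were 22886, 25582 and 19309 normalised counts in WT, 79658, 61830.5 and 59544 in Cdk8KO, 24940.5, 25022 and 20708 in Cdk19KO and 38819, 77924 and 63886 in DoubleKO libraries. Itln1 was the most abundant Paneth gene, and Lyz1 had log2 fold changes of 2.01 and 2.13 in Cdk8KO and DoubleKO. In double knockout organoids the paper reports unaltered staining for lysozyme (Paneth), Olfm4 (stem) and Dclk1 (tuft), and higher Muc2 staining (goblet). Staining measures protein, and RNA counts do not. By qRT-PCR the paper found no lineage whose markers all changed the same way. Of 9 crypt stem cell genes 6 fell in DoubleKO (median −0.48), Lgr5 by 1.23 on the log2 scale; the most abundant was Olfm4, and summed levels were 60973, 59007 and 55066 in WT, 57661, 73863 and 50678 in Cdk8KO, 67869.7, 100666 and 88284 in Cdk19KO and 45340.5, 44827 and 43864 in DoubleKO. Of 10 proliferation genes, Top2a the most abundant, 7 fell (median −0.52), with 3, 2 and 3 without WT replicate 1, 2 and 3, and 4 and 2 without DoubleKO replicate 2 and 3. Their summed level was 29570.3, 29381 and 31319 in WT, 29338, 30705 and 21677 in Cdk8KO, 27153, 31824 and 30218 in Cdk19KO and 21778, 21217 and 18907 in DoubleKO libraries. Among 8 goblet genes, Fcgbp the most abundant, 2 rose (median 0.62), with Muc2 at 1.36; the count was 1 without WT replicate 1 or 2 or DoubleKO replicate 2, and 4 without DoubleKO replicate 1. In Cdk8KO 3 goblet genes rose (median 0.87), Muc2 with 0.98, and 1 without WT replicate 1 or 2. Goblet levels summed to 34980.3, 36934 and 48876 in WT, 56655, 54109 and 62258 in Cdk8KO, 41937, 24192 and 21199 in Cdk19KO and 43325, 70531 and 51280.4 in DoubleKO libraries. Of 6 tuft genes 2 fell (median −0.80), Pou2f3 with −1.66; 1 was called without WT replicate 1 or 2 or DoubleKO replicate 1 or 2, and 4 without DoubleKO replicate 3. Tuft levels, led by Trpm5, summed to 1335, 1312 and 829 in WT, 1627, 1283 and 1149 in Cdk8KO, 1027, 844 and 881 in Cdk19KO and 342, 710.0 and 892 in DoubleKO libraries. The 7 enteroendocrine genes, led by Chgb, had a median of −0.03, and summed levels of 21087, 23134 and 14518 in WT, 25150.1, 15128 and 25653 in Cdk8KO, 19187, 27985 and 28930.4 in Cdk19KO and 11074, 23474 and 19953 in DoubleKO libraries. No gene of these 6 lists was at 0 in all 12 libraries, and their part in the results for the 10 factors was not tested.

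Among 28 other gut transcription factors tested in DoubleKO against WT, where 17.3% of all genes were called, 7 fell and 1 rose (median −0.10), and the 1 that rose was not called without any single library of the pair of groups except WT replicate 2. Sox9 (−0.87), Vdr (−0.80) and Ascl2 (−1.04, also a stem cell gene) were among those that fell. Of the 12 other KLF genes 1 fell, Klf10 (−0.52), with a median of −0.25. Of 10 further relatives of the members 3 rose, including Creb3 (0.50), with a median of 0.17 and a count of 1 without WT replicate 1 or 2. Shares this near to that of all genes are not results about the lists.

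**Figure D2:**
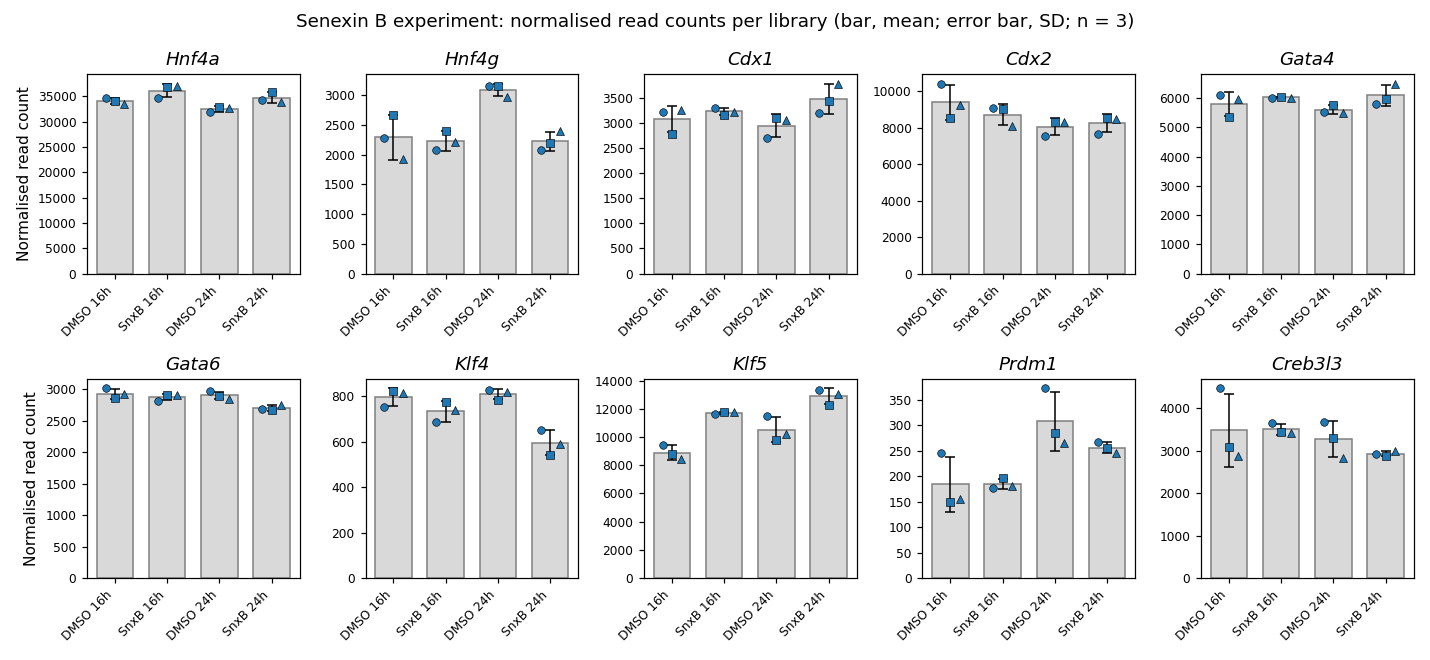
Normalised read counts (vertical axis) of the 10 genes in the DMSO and Senexin B groups at 16 h and 24 h (horizontal axis). Bars are means, error bars standard deviations and points the 3 libraries of a group; the Klf5 libraries with Senexin B lie above those with DMSO at the same time.

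Senexin B is an inhibitor of the kinases CDK8 and CDK19, and RNA counts do not show the activity or level of either protein. Exposure lasted 16 h or 24 h. Each time point has its own DMSO libraries. Klf5 had 9436, 8825 and 8417 normalised counts in DMSO and 11628, 11767 and 11742 in Senexin B at 16 h. At 24 h it had 11502, 9786 and 10229 in DMSO, against 13339, 12253 and 13078 in Senexin B. At both times the 3 Senexin B libraries lay above the 3 DMSO libraries. At 16 h Klf5 rose, the 1 member called where 7.75% of the 15467 genes tested were called (log2 fold change 0.40, standard error 0.0703, edgeR adjusted p = 0.00315). The labels state no pairing of replicates. Residuals of DMSO and Senexin B libraries with the same number had Pearson r of 0.303, 0.101 and 0.110 at 16 h, and 0.377, 0.137 and 0.187 at 24 h; 1 pair with different numbers had 0.154 and 0.147. With the replicate as a block, edgeR called 2293 genes in place of 1198 at 16 h, 5712 in place of 4252 at 24 h and 60 in place of 0 for the difference between these effects, while the members called stayed the same. The other members had log2 fold changes between −0.12 and 0.09 at 16 h, all with overlapping groups, so that 1 of 10 had groups without overlap, beside 24.8% of all genes, and the median of the 10 was 0.01, beside −0.01 for all genes.

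At 24 h, 4 members were called, 2 up and 2 down, where 27.5% of all genes tested were called. Klf5 rose again (log2 fold change 0.30, standard error 0.0701, edgeR adjusted p = 0.00716). Klf4 had 751, 825 and 812 normalised counts in DMSO and 685, 775 and 741 in Senexin B at 16 h. At 24 h it had 827, 784 and 818 in DMSO, against 653, 543 and 590.0 in Senexin B. The Senexin B libraries lay below all DMSO libraries at 24 h, and overlapped them at 16 h. Klf4 fell at 24 h (log2 fold change −0.44, standard error 0.0820, edgeR adjusted p = 0.00153). Hnf4g had 2271, 2669 and 1923 normalised counts in DMSO and 2079, 2398 and 2208 in Senexin B at 16 h. At 24 h it had 3151, 3146 and 2968 in DMSO, against 2077, 2194 and 2399 in Senexin B. Again the 24 h groups did not overlap, as for 7 of the 10 members (all but Cdx2, Prdm1 and Creb3l3) and 45.6% of all genes. Hnf4g fell (log2 fold change −0.47, standard error 0.101, edgeR adjusted p = 0.00368). Klf5, Klf4 and Hnf4g were each called in 6 of 6 fits that left out 1 library of the pair of groups. The DMSO libraries at 24 h had more Hnf4g than those at 16 h, while Senexin B libraries at both times overlapped. Cdk19 itself had 1562, 1360.0 and 1484 normalised counts in DMSO and 1401, 1127 and 1174 in Senexin B at 24 h, which overlap. It fell (log2 fold change −0.25, standard error 0.0834, edgeR adjusted p = 0.0375), but was not called without DMSO replicate 1 or 3 or Senexin B replicate 2 or 3 (highest adjusted p 0.166).

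Cdx1 had 3205, 2783 and 3256 normalised counts in DMSO and 3302, 3158 and 3216 in Senexin B at 16 h. At 24 h it had 2687, 3088 and 3057 in DMSO, against 3188, 3437 and 3778 in Senexin B. The 24 h groups did not overlap, and Cdx1 rose (log2 fold change 0.24, standard error 0.0818, edgeR adjusted p = 0.0450). This call rests on single libraries: the adjusted p was 0.175, 0.0565 and 0.0650 without DMSO replicate 1, 2 and 3, and 0.100 and 0.195 without Senexin B replicate 2 and 3. With the 2 groups fitted alone it was 0.0507, and over all alternatives it ranged from 0.0189 to 0.195. The remaining 6 members were not called at 24 h: Cdx2 0.03, Gata4 0.12, Gata6 −0.10, Hnf4a 0.10, Creb3l3 −0.16 and Prdm1 −0.27 on the log2 scale. Hnf4a stayed within 31788 and 36978 normalised counts over the 12 libraries. The median of the 10 was −0.04, beside 0.00 for all genes.

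Whether the inhibitor's effect differs between the times was tested as an interaction. By edgeR 0 members were called, where 0% of all genes were, with 2 members and 12.9% of all genes at an unadjusted p under 0.05; DESeq2 called 0 members and 0.472% of all genes. Those 2 were Hnf4g, with a difference of −0.44 (standard error 0.143, edgeR adjusted p = 0.275), and Klf4, with −0.33 (standard error 0.115, adjusted p = 0.294).

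The same DMSO libraries, without inhibitor, were also compared between 16 h and 24 h. Time in culture and time in solvent differ together here, and their parts were not tested. Prdm1 had 246, 150.3 and 155 normalised counts in DMSO at 16 h and 373, 285 and 266 at 24 h, with no overlap, as for 5 of the 10 members (also Hnf4a, Hnf4g, Cdx2 and Klf5) and 28.7% of all genes. In this comparison 3 members were called, all upward, where 11.1% of all genes tested were. Prdm1 rose (log2 fold change 0.74, standard error 0.171, edgeR adjusted p = 0.0159), with adjusted p of 0.0807 and 0.0763 without DMSO 16 h replicate 3 or DMSO 24 h replicate 1 (range over alternatives 0.000174 to 0.0807). Hnf4g rose (log2 fold change 0.43, standard error 0.101, edgeR adjusted p = 0.0167), with 0.0739 and 0.0618 without the same libraries (range 0.000654 to 0.0739). Klf5 rose (log2 fold change 0.24, standard error 0.0702, edgeR adjusted p = 0.0412), with 0.0661, 0.162, 0.182 and 0.0747 without DMSO 16 h replicate 2 or 3 or DMSO 24 h replicate 1 or 3 (range 0.00980 to 0.182). With these 4 groups reduced to the 2 compared, none of the 3 passed (edgeR adjusted p = 0.0753 for Prdm1, 0.0687 for Hnf4g and 0.136 for Klf5). That fit called 2.57% of all genes, beside 11.1% in the main fit. Libraries of the same number at 16 h and 24 h had r of 0.366, −0.0503 and 0.284 between residuals, and with the replicate as a block 3281 genes were called in place of 1719, with the same 3 members. Fits with 1 library left out called 2.75% to 14.6% of all genes. Cdx2 was called in the other direction without DMSO 16 h replicate 2 (−0.28, adjusted p = 0.0399; −0.22 and 0.0959 with it; range 0.0399 to 0.290). Of the 12 other KLF genes, a short list, 4 rose with time beside 11.1% of all genes, among them Klf3 (0.34) and Klf7 (0.38), and 2 without DMSO 16 h replicate 2 or 3 or DMSO 24 h replicate 1 or 3.

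Target lists were counted under Senexin B at 24 h, where 27.5% of all genes were called, and 16.9% to 24.2% with 1 library of the pair of groups left out; shares near or below this are not results about the lists. Of the 26 brush border and villus genes 3 rose and 7 fell (median −0.14, beside 0.00 for all genes), with Enpep at 1.04 and Mep1a at −1.06. Lct, a lactase expressed in suckling animals, had 59.1, 41.9 and 29.5 normalised counts in DMSO and 542, 571 and 518 in Senexin B. Sis, which follows it in the adult, had 19383, 21986 and 20354 in DMSO and 8338, 10821 and 13358 in Senexin B. Neither gene's groups overlapped: Lct rose (log2 fold change 3.64, standard error 0.309, edgeR adjusted p = 4.53e-06) and Sis fell (log2 fold change −0.92, standard error 0.166, edgeR adjusted p = 0.00124). Within the PRDM1 list of 7 genes, which holds both, 2 rose and 2 fell (median −0.16). Of 18 lipoprotein and lipid genes 4 rose and 3 fell (median 0.09); the count up was 2, 1, 2 and 2 without DMSO replicate 2, DMSO replicate 3, Senexin B replicate 2 and Senexin B replicate 3, and the count down was 1 without Senexin B replicate 2. Of 8 jejunal genes 3 rose and 2 fell (median 0.16), with 1 down without DMSO replicate 2 or Senexin B replicate 2 or 3. Among 6 ileal genes 1 rose, Fgf15 (0.98; list median 0.21), against 3 at 16 h, as given below. Of 6 villus tip genes 4 fell, including Egfr (−0.39), with a median of −0.39 and a count of 1 without DMSO replicate 1 or Senexin B replicate 2 or 3. Of 12 other KLF genes 4 fell and 1 rose (median −0.09); the count down was 1 without DMSO replicate 1 or 3 or Senexin B replicate 1, and 0 without DMSO replicate 2 or Senexin B replicate 3, and the count up was 0 without DMSO replicate 2 or Senexin B replicate 2. Of 27 other gut factors 1 rose and 2 fell (median 0.04), including Isx (−1.07); the count up was 2 without DMSO replicate 1 and 0 without DMSO replicate 2 or 3 or Senexin B replicate 1 or 2, and the count down was 1 without Senexin B replicate 3. Of 10 relatives of the members 1 fell, Prdm10 (−0.42; median 0.02).

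Markers of secretory and crypt cells were counted alongside, with the same 27.5% of all genes called at 24 h (16.9% to 24.2% with 1 library left out). Of 7 Paneth genes, Defa24 the most abundant, 6 fell at 24 h (median −0.85), Lyz1 by 1.02 on the log2 scale. Their summed levels were 56122, 80717 and 75789 in DMSO and 51078, 55606 and 42807 in Senexin B at 16 h, and at 24 h 85147, 81358 and 79476 in DMSO and 49284, 41274 and 36157 in Senexin B. Of 8 goblet genes, led by Fcgbp, 5 rose and 1 fell (median 0.37), with Zg16 at 1.08. Summed goblet levels were 98614, 101777 and 79748 in DMSO and 88834, 89946 and 79778 in Senexin B at 16 h. At 24 h they were 109638, 97472 and 96326 in DMSO and 93549.6, 88463 and 83148 in Senexin B. Every Senexin B library at 24 h thus lay below every DMSO library in this sum, while the median log2 fold change was positive. Of 6 tuft genes, led by Trpm5, 4 rose (median 0.43), with 2 without DMSO replicate 2 or Senexin B replicate 1, and summed levels were 755, 749.7 and 752 in DMSO and 949.9, 733 and 777 in Senexin B at 16 h, and at 24 h 842, 766 and 784 in DMSO and 1185, 1059 and 1061 in Senexin B. Among 7 enteroendocrine genes, led by Chgb, 2 rose and 1 fell (median 0.39), and summed levels were 6787, 6237 and 6674 in DMSO and 6329.5, 7679.6 and 6561 in Senexin B at 16 h, and at 24 h 8614, 9000.1 and 9529.6 in DMSO and 8065, 11264 and 10799.9 in Senexin B. Of 9 stem cell genes, led by Slc12a2, 1 rose and 2 fell (median 0.05), Lgr5 with −0.97; the count up was 0 without DMSO replicate 2, and summed levels were 65433, 92980.1 and 93364 in DMSO and 94234, 90569.9 and 100793 in Senexin B at 16 h, and at 24 h 81452, 82959 and 95192 in DMSO and 102441, 86963 and 91240.0 in Senexin B. Of 10 proliferation genes, led by Top2a, 4 rose (median 0.19), with 0 without DMSO replicate 1 or Senexin B replicate 2 and 1 without Senexin B replicate 3, and summed levels were 46093, 56759 and 56532 in DMSO and 49496, 54352 and 52529.9 in Senexin B at 16 h, and at 24 h 41534, 50663 and 53180.1 in DMSO and 47192, 55546 and 55546 in Senexin B. No gene of these 6 lists was at 0 in all 12 libraries, and their part in the results for the 10 factors was not tested.

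At 16 h, with 7.75% of all genes called (4.18% to 11.6% with 1 library left out), 4 of these lists are described, chosen after their values were seen; differences between the times were not tested for lists. Of 6 ileal genes 3 rose (median 0.37), among them Nr1h4 (0.37), with a count of 1 without DMSO replicate 2 or 3 or Senexin B replicate 1 or 2. Of 26 brush border genes 4 rose and 4 fell (median −0.09), with Lct at 2.30 and Mep1a at −0.80; the count up was 2 without DMSO replicate 1 or Senexin B replicate 1 or 2, and the count down 7 without DMSO replicate 3, 2 without Senexin B replicate 1 or 2 and 1 without Senexin B replicate 3. Of 8 goblet genes 4 rose (median 0.30), with Zg16 at 0.54, and 2 without Senexin B replicate 2. Of 7 Paneth genes 2 fell (median −0.30), with 1 without DMSO replicate 2 or 3 or Senexin B replicate 1, and 0 without Senexin B replicate 3. Lists not described held called genes too. Among them were Pax6 (1.18), Chga (0.52) and Neurog3 (−0.37), enteroendocrine, and Sis (−0.73) and Ass1 (−0.43), of the PRDM1 list. Their dependence on single libraries is not given here.

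**Figure D3:**
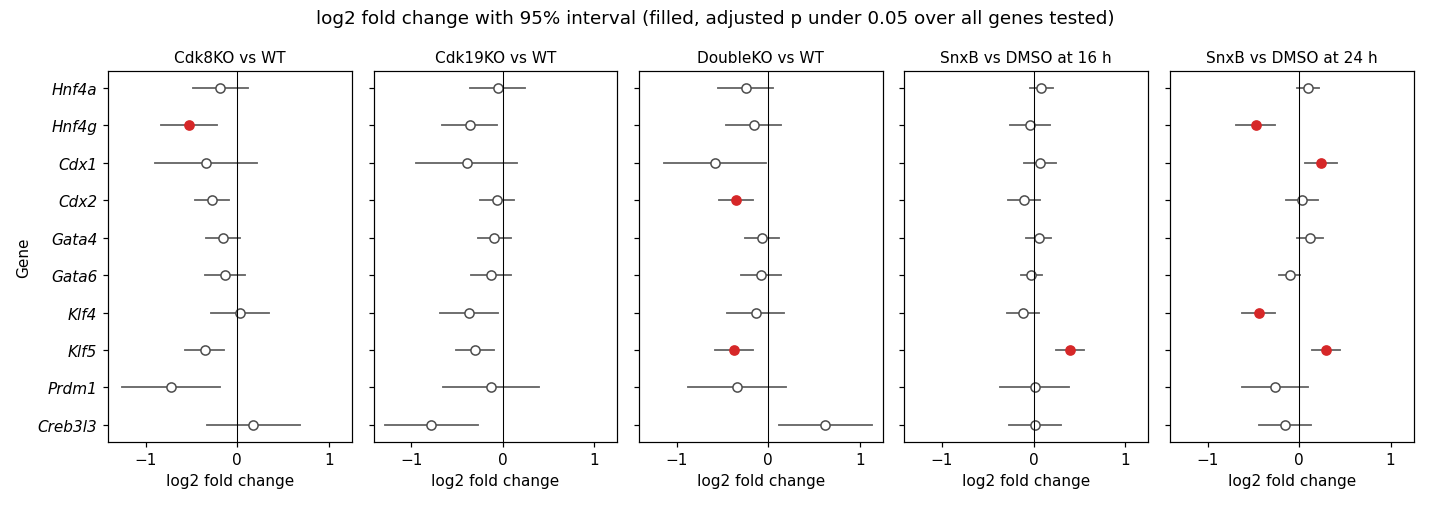
The log2 fold change (horizontal axis) of each of the 10 genes (vertical axis) in the 3 genotype groups against WT and in Senexin B against DMSO at each time, with 95% intervals. Filled points have an edgeR adjusted p under 0.05; Klf5 lies left of 0 in the 3 genotype panels and right of 0 in the Senexin B panels.

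Klf5 thus had negative log2 fold changes in the 3 genotype groups against WT (−0.36, −0.30 and −0.38) and positive ones with Senexin B (0.40 and 0.30). Klf4 had 0.03, −0.37 and −0.14 in the genotype groups, and −0.12 and −0.44 with Senexin B. For Hnf4g these values were −0.53, −0.36 and −0.16, and −0.04 and −0.47. The experiments differ in library type and duration, and a difference between them was not tested.

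Across the 12 libraries of an experiment, log2 CPM (counts scaled to library size) of some members ran in parallel. The points are the same libraries, in 4 groups, and share depth and group differences, so the Pearson r values are descriptions (n = 12). In the genotype experiment the highest were Gata4 with Gata6 (0.795), Cdx2 with Klf5 (0.760) and, level at the digits given, Hnf4g with Klf5 (0.704) and Hnf4g with Gata6 (0.704). With the inhibitor, Cdx1 ran with Gata4 (0.884) and Gata6 with Klf4 (0.794), while Klf4 ran against Cdx1 (−0.765) and against Klf5 (−0.687). Among 12131 genes of the genotype experiment with a mean of at least 50 counts, those most like Hnf4g were Slc30a4 at 0.930, Sepsecs at 0.902 and Tomm40l at 0.889. Nearest to Cdx2 were Ndufb11 at 0.969, Srrm1 at 0.956 and Zfp777 at 0.956, and nearest to Klf5 Acsl1 at 0.921, Ces2a at 0.908 and Cog7 at 0.905. Among 12005 genes of the inhibitor experiment, Klf5 was closest to Cyp2c55 at 0.981, Edn1 at 0.979 and Gm830 at 0.973. There, Hnf4g was closest to Dennd5b at 0.946, Unkl at 0.945 and 4931406P16Rik at 0.943, and Cdx1 to Aar2 at 0.949, Rbm38 at 0.932 and Ppp1r11 at 0.905.

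Hnf4g (ENSMUSG00000017688) spans chr3:3508030-3658052 on the plus strand, and Klf5 (ENSMUSG00000005148) chr14:99298691-99315036, also on the plus strand. Cdx2 (ENSMUSG00000029646) spans chr5:147300805-147307270 and Klf4 (ENSMUSG00000003032) chr4:55527143-55532466, both on the minus strand. RefSeq promoters (250 bases before to 50 after a start, build GRCm38.p6) were at hand for 5 of the 10: Hnf4a, Klf4, Cdx2, Prdm1 and Creb3l3. The 5 motifs searched on both strands stand for cores bound by the members' own families, CAAAG for HNF4, TTTAT for CDX, AGATAA for GATA, CACCC for KLF and TGACG for CREB3L3, and occur in 53.9%, 40.0%, 11.2%, 57.5% and 20.8% of 32851 promoters. The promoters of Cdx2 (chr5:147307200-147307499, minus strand) and Klf4 (chr4:55532426-55532725, minus strand) are printed, as those of the 2 members among these 5 that were called against WT or against DMSO of the same time, with matches in capitals. Cdx2 holds 1 match to the KLF motif, read as GGGTG, and Klf4 holds 1 to the CDX motif and 1 to the CREB3L3 motif, read as CGTCA. A match describes these letters and is not a binding site.
Cdx2: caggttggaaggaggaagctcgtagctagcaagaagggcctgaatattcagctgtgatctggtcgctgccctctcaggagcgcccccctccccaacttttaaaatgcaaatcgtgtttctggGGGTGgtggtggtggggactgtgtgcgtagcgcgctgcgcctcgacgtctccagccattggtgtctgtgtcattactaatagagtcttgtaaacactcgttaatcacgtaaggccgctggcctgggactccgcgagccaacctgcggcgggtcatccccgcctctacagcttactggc
Klf4: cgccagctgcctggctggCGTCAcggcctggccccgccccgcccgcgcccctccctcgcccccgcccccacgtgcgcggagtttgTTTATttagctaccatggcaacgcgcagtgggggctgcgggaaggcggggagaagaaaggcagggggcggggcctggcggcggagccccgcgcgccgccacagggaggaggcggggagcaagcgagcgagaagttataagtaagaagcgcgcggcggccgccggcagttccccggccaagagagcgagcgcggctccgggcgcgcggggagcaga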

How the data were processed

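RNA sequencing gave 50-base single-end reads. The authors aligned them to GRCm38.p6 with STAR (2.6.0c in the deposited notes), Ensembl release 93, and deposited tables of read counts per gene; column 4 was used, without the 4 summary lines. Counts, not further scaled by the authors, were normalised by TMM per experiment, filtered with filterByExpr and fitted with edgeR 4.0.16 (R 4.3.3) as 1 model per experiment with quasi-likelihood tests. Benjamini-Hochberg adjustment ran over all genes tested, and called means an adjusted p under 0.05. DESeq2 1.42.0, other filters, scaling, strand column, a replicate block, subsets of groups and leaving out libraries served as alternatives. GENCODE vM21 gave exon lengths for RPKM. Pearson r used log2 CPM with a prior count of 2.

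The members and gene lists were chosen with earlier results of these data known. Named genes are the 10 members, from each list and comparison the called genes with the 3 largest absolute log2 fold changes and the most abundant marker, and for each member called against a control the 3 genes most correlated with it (not given for Klf4). Of these, the text names mainly genes called in every fit that left out 1 library of the groups compared. Group labels are those of the deposited samples. Figures used matplotlib 3.10.9.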

Additional observations from a re-analysis of the deposited data

How the results depend on the processing

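The number of members called, of 10, moved as follows, with the share of all genes called in the same fit in brackets. For Cdk8KO against WT it was 1 (5.15%), and 3 (8.45%) with DESeq2 and 2 (4.26%) with no filter on low counts. A stricter filter, 10 or more counts per library, gave 2 (5.28%), and unstranded counts gave 2 (5.65%). The replicate block gave 0 (4.54%) by edgeR. In the unblocked fit 4 members and 21.4% of all genes had an unadjusted p under 0.05. Leaving out single libraries gave 0 each time (1.23% to 4.39%). For Cdk19KO against WT it was 0 (0%), and 1 (1.61%) with no filter and 2 (4.21%) without both libraries with WT-level Cdk19. With single libraries left out it was 0 to 1 (0% to 3.27%). For DoubleKO against WT it was 2 (17.3%), and 3 (20.8%) with DESeq2 and 4 (9.71%) with no filter. With only the groups compared it was 3 (18.6%), without both libraries 4 (19.0%) and over single libraries 0 to 2 (8.47% to 15.4%). For DoubleKO against Cdk19KO it was 2 (25.3%), and 1 (13.8%) with no filter and 1 (19.2%) with only the groups compared. Without both libraries it was 3 (28.5%), and over single libraries 1 to 3 (15.1% to 27.1%). For the departure from additivity the brackets hold genes called out of genes tested. It was 0 (4 of 15602), and 2 (496 of 15602) with DESeq2 and 2 (566 of 29805) with no filter. Without both libraries it was 1 (728 of 15821). Over single libraries it was 0 to 1 (0 to 467 genes called, the latter of 15932). For DMSO at 24 h against 16 h it was 3 (11.1%), and 2 (6.55%) with no filter and 2 (11.8%) with unstranded counts. With only the groups compared it was 0 (2.57%), and over single libraries 0 to 3 (2.75% to 14.6%). For Senexin B at 24 h it was 4 (27.5%), and 3 (30.7%) with only the groups compared and 3 to 4 (16.9% to 24.2%) over single libraries. The cause was not tested. Over the alternatives, 1388 member values kept their side of the threshold, 26 newly passed, 36 no longer passed and no called value reversed; 57 of 1277 uncalled values changed sign. With 3 libraries per group, a member that was not called is not shown to be equal between groups. Fits that leave out a library rest on 2 in that group. The paper describes biological triplicates, and which culture or clone each library came from is not known here. Replicates were unevenly alike by the mean chi-square per gene between raw counts of 2 libraries, higher where counts differ more. It was 2.44 for WT replicates 1 and 2, against 10.4 and 9.75 with replicate 3. For Cdk19KO replicates 2 and 3 it was 4.31, against 25.9 and 27.4 with replicate 1. The tests treat all libraries as independent.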
